A study of Mus musculus with 6 samples.

Results

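Srebf1, Srebf2, Scap, Insig1, Insig2, Mlxipl, Mlx, Nr1h2 and Nr1h3 encode the regulators through which a liver cell sets its transcription of sterol and fatty acid genes. These 9 genes were taken by name from a table of 20107 genes, and all 9 passed the filter on low counts that left 14896 genes for testing. Liver RNA came from wild-type male C57BL/6N mice aged 16 weeks, which were littermates. The HFHC group, with 3 livers (replicates 1, 2 and 3), received food rich in fat, calories and fructose together with a fructose-rich drink for 8 weeks, starting when the mice were 8 weeks old. The Chow group, with 3 livers (replicates 7, 8 and 9), was kept on Chow over the same weeks. The drink and the food changed together, so the part of fructose, fat and calories in any difference cannot be told apart. Both diets were given ad libitum, and neither the hour of collection nor any fasting before it is given in the sources used here.

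Library totals were between 30096409 and 30871297 counts in HFHC livers and between 26767416 and 27339613 counts in Chow livers. The 10 hepatocyte markers summed to 94261 to 97030 CPM (counts scaled to a common library size) in HFHC livers and to 87914 to 107947 CPM in Chow livers, and 3 of them passed the test as lower in HFHC. Of 12 Kupffer cell and macrophage markers none passed the test, and their sums overlapped, with 381 to 468 CPM in HFHC livers and 331 to 392 CPM in Chow livers. Of the markers of adipocytes, which also express several of these regulators, 2 of 6 were in the table, and they summed to 0.402 to 1.83 CPM in HFHC livers and to 0.0377 to 0.0759 CPM in Chow livers. The difference came from Cfd, which encodes adipsin and was called on 1 count over all Chow livers, and its part in the results below was not tested. In whole liver, fewer cells of a type and less RNA per cell cannot be told apart.

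Sterol regulatory element binding proteins (SREBPs) are made as precursors in the endoplasmic reticulum membrane. Scap escorts them to the Golgi, where a pair of proteases release the part that enters the nucleus, and the Insig proteins hold Scap back when sterols are plentiful. Srebf1 encodes SREBP-1a and SREBP-1c, the second of which drives fatty acid synthesis in liver under insulin, and Srebf2 encodes SREBP-2, which drives cholesterol synthesis and uptake. Mlxipl encodes ChREBP, a carbohydrate-responsive factor that binds DNA together with Mlx and acts on glycolytic, fructolytic and lipogenic genes. Nr1h3 and Nr1h2 encode LXRα and LXRβ, nuclear receptors for oxysterols that pair with RXR, and LXRα is known to raise Srebf1 transcription in liver. Much of this control acts on protein cleavage, location and ligand binding, which RNA does not measure.

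Of the 9 regulators, 1 was called at an adjusted p under 0.05 in the comparison of HFHC with Chow livers, and it was Insig2, which rose. Across all tested genes 6.67% were called in either direction, 3.38% as higher and 3.3% as lower. None of the other 8 regulators had an unadjusted p under 0.05 either, which 22.2% of tested genes had, 10.8% as higher and 11.5% as lower. Every HFHC liver lay above every Chow liver in 2 of the 9, Insig2 and Nr1h3, where 13.5% of tested genes lay that way. None of the 9 had every HFHC liver below every Chow liver, which held for 14.3% of tested genes. The fitted log2 fold change, HFHC over Chow, was positive in 8 of the 9 with a median of 0.14, where 49.5% of tested genes were positive and the median of all tested genes was -0.00. The plot of CPM by library shows the separation of Insig2 and the overlap of the others, and the plot of fold changes shows the intervals.

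**Figure D1:**
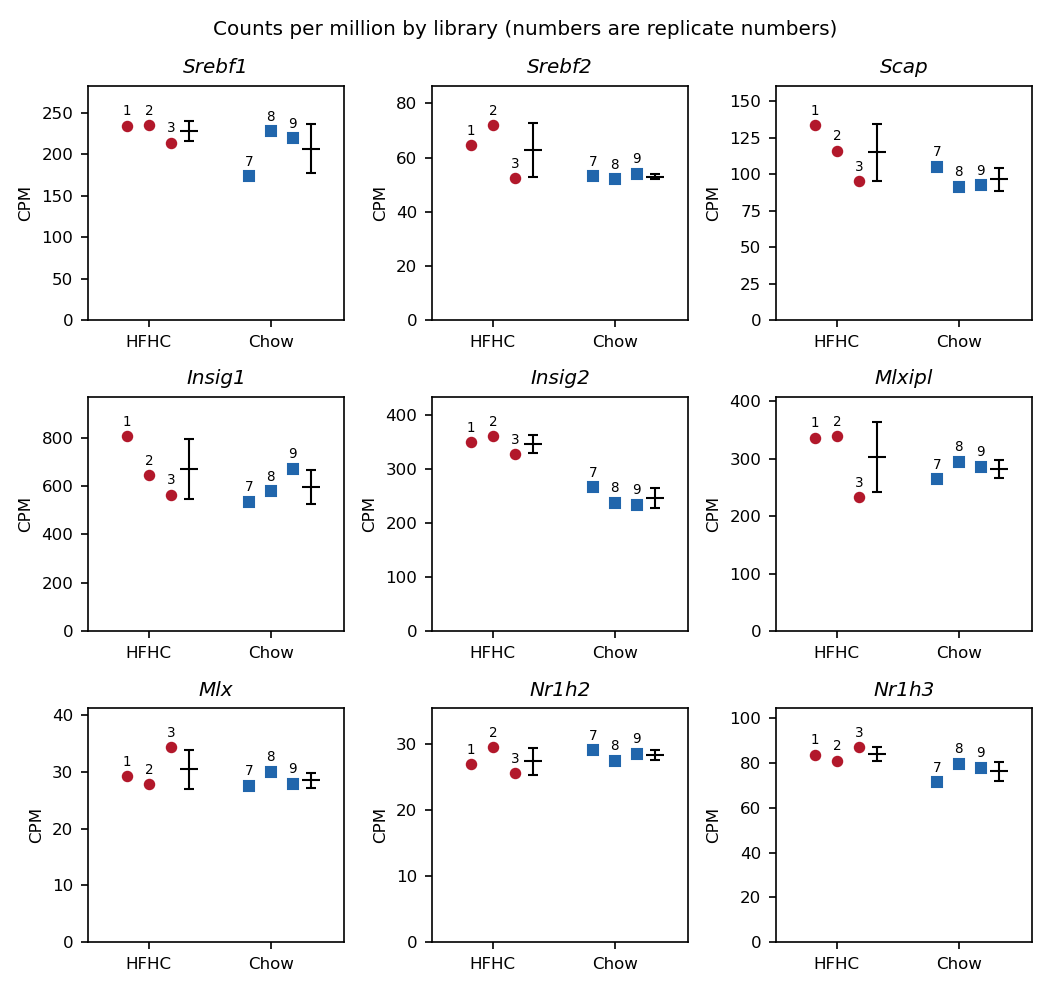
CPM (y axis, from 0) of each of the 9 regulators in every library, HFHC in red circles and Chow in blue squares, with the replicate number over each point; the bars are the mean and SD of 3 livers. Insig2 has HFHC livers between 326.9 and 360.3 CPM, all above the Chow livers.

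**Figure D2:**
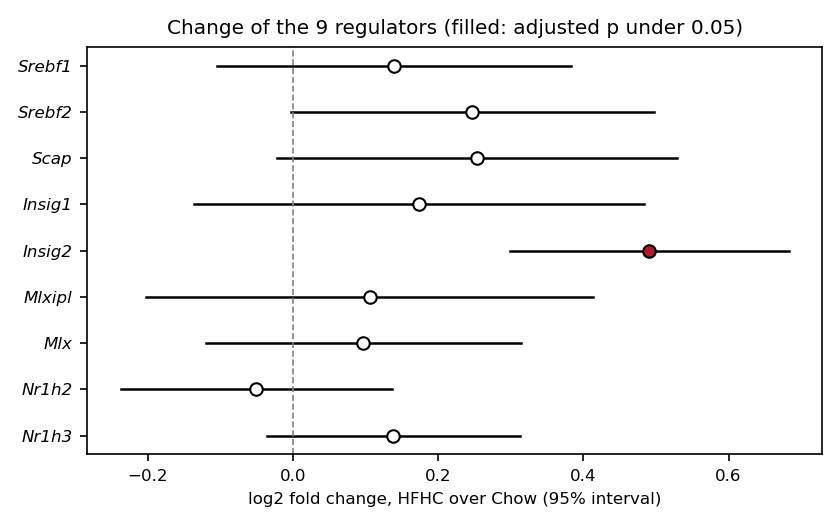
Fitted log2 fold change, HFHC over Chow (x axis), of each regulator (y axis) from edgeR, with its 95% interval as a line; the filled point marks an adjusted p under 0.05. Insig2 stands at 0.49, and the intervals of the other 8 cross 0.

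Insig2, on chromosome 1 (121304353 to 121332589, minus strand, mm10), encodes the second Insig protein, whose liver transcript is known to be lowered by insulin. Its level was 348.9, 360.3 and 326.9 CPM in the HFHC livers, against 266.4, 237.1 and 233.7 CPM in the Chow livers. The lowest HFHC liver was above the highest Chow liver. Insig2 averaged 345 ± 17.0 CPM in HFHC livers and 246 ± 18.0 CPM in Chow livers (SD, n = 3 each), a log2 fold change of 0.49 ± 0.09 (SE), or 1.41-fold with a 95% interval of 1.23 to 1.61. The adjusted p from edgeR's quasi-likelihood test was 0.0113. It was 0.0506 without Chow replicate 9, at a log2 fold change of 0.46. With an index of clock phase in the fit (Per2, Per3 and Dbp averaged on the log2 CPM scale, less the same average over Arntl, Npas2 and Clock) it was 0.186, at 0.59, and that fit called 36 genes higher and 31 lower in all.

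Insig1, on chromosome 5 (28071363 to 28078662, plus strand), encodes the other Insig protein, and is itself a known SREBP target. It had 806.0, 644.7 and 563.6 CPM in the HFHC livers, against 535.3, 579.3 and 672.2 CPM in the Chow livers. The groups overlapped, with HFHC replicate 3 below 2 of the Chow livers. Insig1 averaged 671 ± 123 CPM in HFHC livers and 596 ± 69.9 CPM in Chow livers, and its log2 fold change was 0.17 ± 0.14 (adjusted p 0.519). The 95% interval of its fold change was 0.909 to 1.40, which overlaps that of Insig2.

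The promoter windows of the Insig genes are shown because 1 of the pair passed the test and the other did not. They run from 250 bases before to 50 after each RefSeq start (GRCm38.p6) and are written 5′ to 3′ along the gene. Capitals mark every match, on either strand, to the sterol regulatory element core TCACNCCAC, the E-box CACGTG, the half-site of LXR and other nuclear receptors AGGTCA, the CCAAT box and the GC box GGGCGG. RefSeq gives 1 start for Insig1, chr5:28071162-28071461 on the plus strand. For Insig2 it gives 3, chr1:121332540-121332839, chr1:121327975-121328274 and chr1:121327629-121327928 on the minus strand, the others starting 4565 and 4911 bases downstream of the first.
Insig1: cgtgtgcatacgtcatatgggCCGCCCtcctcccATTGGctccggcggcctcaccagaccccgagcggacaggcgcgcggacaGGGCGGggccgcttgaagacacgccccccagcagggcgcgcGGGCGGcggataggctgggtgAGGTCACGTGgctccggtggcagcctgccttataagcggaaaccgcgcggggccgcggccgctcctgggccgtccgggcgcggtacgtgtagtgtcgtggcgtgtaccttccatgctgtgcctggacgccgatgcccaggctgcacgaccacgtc
Insig2 first start: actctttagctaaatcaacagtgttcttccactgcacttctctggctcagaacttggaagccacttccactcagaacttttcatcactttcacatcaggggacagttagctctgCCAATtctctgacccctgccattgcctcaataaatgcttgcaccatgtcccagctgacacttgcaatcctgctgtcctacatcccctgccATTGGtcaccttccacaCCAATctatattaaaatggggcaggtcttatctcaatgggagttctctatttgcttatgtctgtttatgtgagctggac
Insig2 middle start: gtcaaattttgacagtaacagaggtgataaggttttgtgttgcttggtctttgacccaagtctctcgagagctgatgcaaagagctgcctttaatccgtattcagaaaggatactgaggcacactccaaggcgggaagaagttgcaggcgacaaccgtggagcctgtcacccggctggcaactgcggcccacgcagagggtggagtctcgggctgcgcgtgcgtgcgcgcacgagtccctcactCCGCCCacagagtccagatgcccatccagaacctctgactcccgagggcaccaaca
Insig2 farthest start: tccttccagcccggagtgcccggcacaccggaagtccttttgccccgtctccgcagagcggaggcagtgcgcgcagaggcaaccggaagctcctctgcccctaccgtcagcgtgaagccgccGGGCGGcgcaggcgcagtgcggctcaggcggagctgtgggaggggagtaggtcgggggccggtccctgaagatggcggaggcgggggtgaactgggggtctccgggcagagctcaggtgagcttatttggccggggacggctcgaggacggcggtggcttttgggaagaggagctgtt
The Insig1 window held an E-box 101 bases before the start that overlapped an AGGTCA half-site beginning 105 bases before it. It also held 3 GC boxes and a CCAAT box 216 bases before the start. The window of the first Insig2 start held 3 CCAAT boxes and no CpG, at a GC content of 46%, against 71.7% in the Insig1 window. The other windows of Insig2 held 1 GC box each. CCAAT and GC boxes occurred in 37.4% and 35.7% of all 32851 promoter windows of this length, AGGTCA in 16.3%, CACGTG in 7.15% and TCACNCCAC in 1.24%. The counts are per gene, so they do not say from which start the Insig2 RNA came.

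Scap, on chromosome 9 (110333288 to 110384950, plus strand), encodes the escort protein on which Insig proteins act. Its level was 133.7, 116.0 and 95.1 CPM in the HFHC livers, against 105.3, 91.4 and 92.7 CPM in the Chow livers. HFHC replicates 1 and 2 were above all Chow livers and replicate 3 was not. Scap averaged 115 ± 19.3 CPM in HFHC livers and 96.4 ± 7.66 CPM in Chow livers, and the log2 fold change was 0.25 ± 0.12 (fold interval 0.985 to 1.44, adjusted p 0.262). The annotation places 13.2% of Scap's exonic bases under an unclassified transcript on the opposite strand, and the strand setting of the counting is not given in the sources used here.

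Srebf1, on chromosome 11 (60199089 to 60222581, minus strand), had 234.9, 235.4 and 214.0 CPM in the HFHC livers, against 174.0, 227.9 and 219.5 CPM in the Chow livers. HFHC replicate 3 lay below Chow replicates 8 and 9, and Chow replicate 7 was the lowest of the 6. The averages were 228 ± 12.2 CPM in HFHC livers and 207 ± 29.0 CPM in Chow livers, with a log2 fold change of 0.14 ± 0.11 (fold interval 0.930 to 1.30, adjusted p 0.510). The table holds 1 value for Srebf1, so SREBP-1a and SREBP-1c, which differ in their first exon, were counted together.

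Srebf2, on chromosome 15 (82147181 to 82205379, plus strand), had 64.4, 72.0 and 52.3 CPM in the HFHC livers, against 53.0, 52.0 and 54.0 CPM in the Chow livers. The Chow livers lay close together, with HFHC replicate 3 among them and the other HFHC livers above. Srebf2 averaged 62.9 ± 9.93 CPM in HFHC livers and 53.0 ± 1.01 CPM in Chow livers, a log2 fold change of 0.25 ± 0.11 (fold interval 0.998 to 1.41, adjusted p 0.230). Without HFHC replicate 3 the adjusted p was 0.0448, at a log2 fold change of 0.36.

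Mlxipl, on chromosome 5 (135089890 to 135138382, plus strand), had 337.3, 339.8 and 233.8 CPM in the HFHC livers, against 264.7, 295.3 and 286.8 CPM in the Chow livers. HFHC replicates 1 and 2 were the highest of the 6 livers and HFHC replicate 3 was the lowest. The averages were 304 ± 60.5 CPM in HFHC livers and 282 ± 15.8 CPM in Chow livers, and the log2 fold change was 0.11 ± 0.14 (fold interval 0.869 to 1.33, adjusted p 0.710). ChREBP has a shorter form, ChREBP-β, made from an alternative first exon upstream of that of ChREBP-α, and the count per gene sums the forms.

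The 2 promoter windows of Mlxipl are shown because the forms start apart and these counts cannot separate them. RefSeq starts lay 17001 bases apart, with windows chr5:135089640-135089939 and chr5:135106641-135106940 on the plus strand.
Mlxipl first start: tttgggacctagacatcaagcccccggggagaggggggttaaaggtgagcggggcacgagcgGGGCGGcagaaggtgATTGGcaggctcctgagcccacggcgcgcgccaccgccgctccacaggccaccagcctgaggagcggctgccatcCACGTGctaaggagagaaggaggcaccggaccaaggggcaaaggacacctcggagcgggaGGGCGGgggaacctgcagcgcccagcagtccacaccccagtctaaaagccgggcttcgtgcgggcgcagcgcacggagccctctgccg
Mlxipl second start: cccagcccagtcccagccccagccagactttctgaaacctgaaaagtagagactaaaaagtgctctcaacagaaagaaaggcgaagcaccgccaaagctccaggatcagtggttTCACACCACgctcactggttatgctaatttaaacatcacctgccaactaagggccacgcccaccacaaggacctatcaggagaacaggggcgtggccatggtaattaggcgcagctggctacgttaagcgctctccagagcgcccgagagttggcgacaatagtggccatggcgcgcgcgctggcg
The first window held an E-box 98 bases before the start, a CCAAT box and 2 GC boxes. The second held the only match to the sterol regulatory element core among the 16 windows of the 9 regulators, 136 bases before its start. With 1 mismatch allowed, that core matched in 7 of the 16 windows, the E-box in 14 and the AGGTCA half-site in all 16. Short motifs match many windows at that setting. The share of all promoter windows matching so is not given here, so these counts show nothing particular to the regulators. An E-box was found in 5 of the 16 windows, from Scap, Insig1, Mlxipl and Mlx, and both of Scap's overlap and share the match.

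Mlx, on chromosome 11 (101087277 to 101092207, plus strand), encodes the partner without which ChREBP does not bind its targets. It had 29.2, 27.8 and 34.3 CPM in the HFHC livers, against 27.5, 29.96 and 27.9 CPM in the Chow livers. Here HFHC replicate 3 was the highest liver, and the other livers of both diets were interleaved. The log2 fold change of Mlx was 0.10 ± 0.10 (fold interval 0.920 to 1.24, adjusted p 0.616). On the opposite strand, Psmc3ip covers 19.3% of Mlx's exonic bases, and was itself at 0.160 to 0.286 CPM in HFHC livers and 0.0379 to 0.189 CPM in Chow livers.

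Nr1h3, on chromosome 2 (91184061 to 91202834, minus strand), encodes LXRα, which is high in hepatocytes and in macrophages. Its level was 83.5, 80.9 and 86.9 CPM in the HFHC livers, against 71.2, 79.4 and 77.7 CPM in the Chow livers. The groups did not overlap, but the lowest HFHC liver was close to the highest Chow liver. Nr1h3 averaged 83.8 ± 3.04 CPM in HFHC livers and 76.1 ± 4.35 CPM in Chow livers, a log2 fold change of 0.14 ± 0.08 (fold interval 0.975 to 1.24, adjusted p 0.340). Nr1h2, on chromosome 7 (44549616 to 44553951, minus strand), encodes LXRβ and is expressed in most tissues. It had 26.9, 29.5 and 25.6 CPM in the HFHC livers, against 29.0, 27.4 and 28.5 CPM in the Chow livers. The groups overlapped, and the log2 fold change of -0.05 ± 0.08 was the negative one of the 9 (fold interval 0.848 to 1.10, adjusted p 0.778).

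Levels were compared between genes in TPM, which divides counts by exonic length before scaling each library to the same total. Insig1 was the highest regulator, with 474 ± 102 TPM in HFHC livers and 405 ± 45.0 TPM in Chow livers, and Insig2 came next with 217 ± 20.8 TPM in HFHC livers and 149 ± 10.3 TPM in Chow livers. Mlxipl followed with 120 ± 28.8 TPM in HFHC livers and 107 ± 7.63 TPM in Chow livers. Srebf1 was next at 88.2 ± 8.84 TPM in HFHC livers and 77.4 ± 11.8 TPM in Chow livers. The HFHC livers of Mlxipl and Srebf1 overlapped and the Chow livers did not. Nr1h3 had 72.4 ± 1.30 TPM in HFHC livers and 63.6 ± 4.54 TPM in Chow livers, where its Chow livers overlapped those of Srebf1. The other 4 were lower. Scap had 33.7 ± 6.89 TPM in HFHC livers and 27.2 ± 1.94 TPM in Chow livers, and Mlx had 33.0 ± 2.05 TPM in HFHC livers and 29.9 ± 2.01 TPM in Chow livers, overlapping in both diets. Srebf2 had 19.1 ± 3.86 TPM in HFHC livers and 15.5 ± 0.12 TPM in Chow livers, and Nr1h2 had 17.8 ± 2.06 TPM in HFHC livers and 17.7 ± 0.22 TPM in Chow livers. The order of these last genes differed between the diets, and their HFHC livers overlapped. The lengths are those of all annotated exons together, which a liver transcript need not use, and Insig2 has 14 annotated transcripts and Insig1 has 2.

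**Figure D3:**
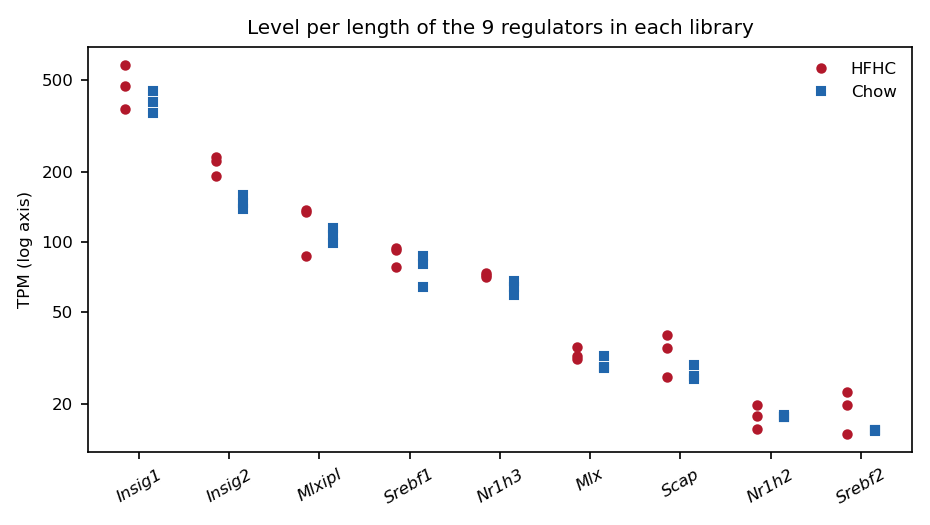
TPM (y axis, log scale) of the 9 regulators in each library, in the order of their Chow means, HFHC in red circles and Chow in blue squares. The Insig genes are the highest in both diets, and Nr1h2 and Srebf2 are the lowest.

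Ratios within a library do not depend on its size, and 4 pairs with a shared role were compared over the libraries. The ratio of Insig2 to Insig1 counts was 0.433, 0.559 and 0.580 in the HFHC livers, against 0.498, 0.409 and 0.348 in the Chow livers. HFHC replicate 1 lay among the Chow livers, and the mean difference of 0.33 on the log2 scale had an exact two-sided permutation p of 0.2, or 0.4 after Benjamini-Hochberg adjustment over the 4 ratios. With 20 assignments of 3 livers against 3, an exact p cannot go below 0.1. The ratio of Nr1h3 to Nr1h2 was 3.10, 2.74 and 3.40 in the HFHC livers, against 2.46, 2.90 and 2.72 in the Chow livers (difference 0.19, exact p 0.2, adjusted 0.4). The ratio of Srebf1 to Srebf2 was 3.65, 3.27 and 4.09 in the HFHC livers, against 3.28, 4.39 and 4.07 in the Chow livers (difference -0.09, exact p 0.7). The ratio of Mlxipl to its partner Mlx was 11.5, 12.2 and 6.82 in the HFHC livers, against 9.61, 9.85 and 10.3 in the Chow livers (difference -0.01, exact p 1). Its HFHC livers lay on both sides of the Chow livers.

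**Figure D4:**
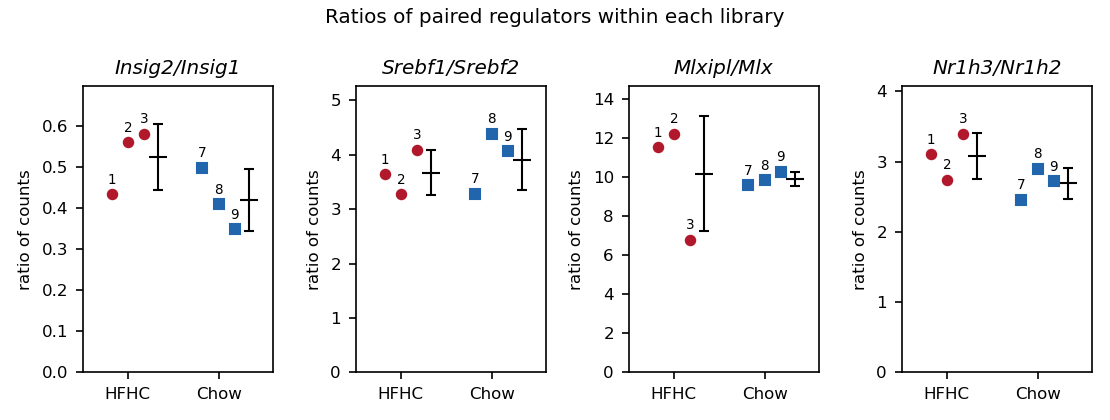
Ratio of the counts of 2 regulators within each library (y axis, from 0) for 4 pairs, HFHC in red circles and Chow in blue squares, with replicate numbers; the bars are the mean and SD of 3 livers. All 4 pairs overlap between the diets, and Mlxipl over Mlx is lowest in HFHC replicate 3, at 6.82.

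The proteins that carry, cleave and degrade the SREBP complex form the nearest layer of the pathway. Of 31 such genes, 0 were called by edgeR in either direction, and 3 were higher and 3 lower at an unadjusted p under 0.05, a share near the 22.2% of all tested genes. DESeq2 and limma-voom also called 0. Their median log2 fold change was 0.03, close to that of all tested genes. Pgrmc1, which encodes a haem-binding membrane protein that binds Scap and Insig1, had the smallest p, with 1147 ± 83.9 CPM in HFHC livers and 1399 ± 95.2 CPM in Chow livers, a log2 fold change of -0.29 ± 0.09 (adjusted p 0.103). Mbtps1 and Mbtps2 encode the Golgi proteases that cleave SREBPs, and both had log2 fold changes of -0.09, with adjusted p of 0.664 and 0.713.

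Among the partners and counterparts of ChREBP and Mlx, the MLX and MAX network, 2 of 12 tested genes were called higher and 1 lower. Their median was -0.05. Across all tested genes 3.38% were called higher and 3.3% lower. At an unadjusted p under 0.05, 3 of the network were higher and 1 was lower, where 10.8% of all tested genes were higher and 11.5% lower. Mycn, a MYC family factor, rose by 1.25 ± 0.21 on the log2 scale (adjusted p 0.00909), at 3.23 ± 0.636 CPM in HFHC livers and 1.35 ± 0.167 CPM in Chow livers. Mycl, another of that family, rose by 0.67 ± 0.16 (adjusted p 0.0395). Mga, a MAX partner, fell by 0.54 ± 0.11 (adjusted p 0.0182). Neither Mycl nor Mga was called without HFHC replicate 1 or 2, or without Chow replicate 7 or 9 (adjusted p 0.0506 to 0.135), and Mga was not called once a GC and length trend was taken out (0.159). Mlxip, which encodes the ChREBP relative MondoA, was at 9.002, 9.25 and 8.25 CPM in the HFHC livers, against 9.33, 11.8 and 9.77 CPM in the Chow livers. Its HFHC livers lay below the Chow livers, and its log2 fold change was -0.22 ± 0.12 (adjusted p 0.314).

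LXRs act with RXR and with coactivators and corepressors. The list of these also holds other nuclear receptors and DNA-binding factors, among them Hnf4a, Nr5a2, Nr0b2, Sp1 and Nfya. Of its 28 genes, 0 were called higher and 2 lower by edgeR, with a median of -0.16. At an unadjusted p under 0.05, 0 were higher and 9 lower, where 10.8% of all tested genes were higher and 11.5% lower, and DESeq2 and limma-voom called 0 higher. Rxra, the main RXR of liver, had a log2 fold change of 0.04 ± 0.10 (adjusted p 0.844). Nr5a2, a liver receptor that acts beside LXR on bile acid genes, fell by 0.40 ± 0.08 (adjusted p 0.0232), to 70.5 ± 4.18 CPM in HFHC livers, against 93.4 ± 6.49 CPM in Chow livers. The coactivator Ncoa2 fell by 0.33 ± 0.08 (adjusted p 0.0486). Nr5a2 was not called without HFHC replicate 2 or 3 or Chow replicate 7 or 9 (adjusted p 0.0603 to 0.0904), and Ncoa2 was not called without any 1 of the 6 livers (0.0625 to 0.175), with upper-quartile factors, with no count filter or after removal of the GC and length trend.

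Insulin and mTORC1 signalling genes that feed into Srebf1 gave 0 of 26 called higher and 1 lower by edgeR, with a median of -0.06, and 2 were higher and 5 lower at an unadjusted p under 0.05, near the 22.2% of all tested genes. Irs1, an insulin receptor substrate, fell by 0.90 ± 0.16 on the log2 scale (adjusted p 0.0117), to 22.4 ± 5.37 CPM in HFHC livers, against 41.9 ± 3.82 CPM in Chow livers. On the opposite strand, another annotated gene covers 30.9% of Irs1's exonic bases. The strand setting of the counting is not given, so some of Irs1's counts are uncertain. The number called higher was 0 by DESeq2, 1 by limma-voom and 4 without Chow replicate 8, where 3 were called lower.

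Genes that make or break down oxysterols and other LXR ligands gave 3 of 10 called higher and 1 lower, with a median of 0.19. The shares of all tested genes were 3.38% called higher and 3.3% lower. At an unadjusted p under 0.05, 4 of the 10 were higher and 2 lower, where 10.8% of all tested genes were higher and 11.5% lower. Sqle and Lss, successive enzymes of cholesterol synthesis that also make epoxycholesterol precursors, rose by 1.18 ± 0.15 (adjusted p 0.00261) and by 1.26 ± 0.19 (adjusted p 0.00675). Cyp46a1, a cholesterol hydroxylase best known from brain, rose by 1.03 ± 0.24 (adjusted p 0.0372) on 177 counts over the HFHC livers and 75 over the Chow livers. It was called only without Chow replicate 7 when 1 liver at a time was left out (0.0659 to 0.123 in the other 5), and not after removal of the GC and length trend (0.0534). Cyp3a11, a drug and sterol hydroxylase, fell by 4.72 ± 0.32 (adjusted p 0.000124), to 191 ± 83.1 CPM in HFHC livers, against 5035 ± 1155 CPM in Chow livers.

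Known targets of the SREBPs and of ChREBP moved in 1 direction where called. These lists were chosen with earlier results of these livers known, so their direction is not independent evidence, and their counts stand against 3.38% of all tested genes called higher. Of 24 sterol synthesis and uptake genes known as SREBP-2 targets, 18 were called higher and 0 lower, with a median log2 fold change of 0.78. At an unadjusted p under 0.05, 23 were higher and 1 was lower, where 10.8% of all tested genes were higher and 11.5% lower. Hmgcs1, an early enzyme of cholesterol synthesis, had 1521, 1578 and 1184 CPM in the HFHC livers, against 665, 626 and 725 CPM in the Chow livers. Every HFHC liver was above every Chow liver, and Hmgcs1 rose by 1.09 ± 0.12 on the log2 scale (adjusted p 0.00142). Hsd17b7, a late enzyme of the pathway, rose by 0.93 ± 0.11 (adjusted p 0.00155).

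Of 19 fatty acid synthesis genes known as SREBP-1c targets, 12 were called higher and 0 lower, with a median of 1.11, and 18 were higher and 0 lower at an unadjusted p under 0.05. The count was 7 without HFHC replicate 1 and 7 without HFHC replicate 2. Fads2 and Elovl5, which desaturate and elongate polyunsaturated fatty acids, rose by 1.71 ± 0.14 (adjusted p 0.000220) and 1.94 ± 0.17 (adjusted p 0.000383). Pnpla3, a lipid droplet protein, rose by 3.89 ± 0.41 (adjusted p 0.00105) on 380 counts over the HFHC livers and 22 over the Chow livers. Fasn, the fatty acid synthase, had 859, 1058 and 451 CPM in the HFHC livers, against 226, 440 and 377 CPM in the Chow livers. Its groups did not overlap, though HFHC replicate 3 was close to Chow replicate 8, and its log2 fold change of 1.18 ± 0.31 missed the threshold (adjusted p 0.0522). It was called under 6 alternatives, with upper-quartile factors (0.0448), no count filter (0.0440), limma-voom with sample weights (0.0164) or removal of the GC and length trend (0.0211), and without HFHC replicate 3 (0.0183) or Chow replicate 8 (0.0370).

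Of 27 ChREBP targets, 13 were called higher and 0 lower, with a median of 0.81, and 21 were higher and 0 lower at an unadjusted p under 0.05. Log2 fold changes were positive in 24 of the 27. Those of Txnip (-0.05, adjusted p 0.935), Arrdc4 (-0.31, 0.518) and G6pc (-0.32, 0.594) were negative. The list shares 7 genes with that of the SREBP-1c targets. DESeq2 and limma-voom called 0 lower in all 3 of these target lists. The count was 8 without HFHC replicate 2 and 7 without Chow replicate 7. Khk, the enzyme that commits fructose to fructolysis, rose by 0.87 ± 0.10 (adjusted p 0.00191), to 477 ± 35.1 CPM in HFHC livers, against 260 ± 29.1 CPM in Chow livers. Fgf21, a liver hormone, rose by 5.005 ± 0.54 (adjusted p 0.00124) on 718 counts over the HFHC livers and 19 over the Chow livers. Pklr, the liver pyruvate kinase, had 539, 508 and 414 CPM in the HFHC livers, against 104, 221 and 164 CPM in the Chow livers. The groups were apart, and the log2 fold change of Pklr was 1.58 ± 0.23 (adjusted p 0.00554). With the index of clock phase in the fit, 36 of all tested genes were called higher. They included 2 SREBP-2 targets, 2 SREBP-1c targets and 0 ChREBP targets. Over the 16 alternatives, this fit included, median log2 fold changes were 0.70 to 0.86 for SREBP-2 targets and 0.92 to 1.38 for SREBP-1c targets. For ChREBP targets they were 0.53 to 0.91. The index was 0.470, 1.12 and 1.28 in HFHC livers, against -1.92, 0.482 and -1.43 in Chow livers. It ran partly with diet, so the parts of diet and clock phase cannot be told apart.

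Of 23 tested LXR targets, 7 were called higher and 1 lower, with a median of 0.24. Across all tested genes 3.38% were called higher and 3.3% lower. At an unadjusted p under 0.05, 10 of the LXR targets were higher and 1 was lower. Of all tested genes 10.8% were higher and 11.5% lower at that cut. Of the 7 called higher, 3, Scd1, Fgf21 and Pnpla3, are also listed for ChREBP. The median was 0.41 with the index of clock phase in the fit and 0.33 without Chow replicate 7. Pltp, which moves phospholipids between lipoproteins, had 92.1, 88.2 and 60.7 CPM in the HFHC livers, against 16.7, 23.2 and 16.9 CPM in the Chow livers. The groups were far apart, at a log2 fold change of 2.09 ± 0.18 (adjusted p 0.000346). However, 19.3% of Pltp's exonic bases overlap Ctsa, on the opposite strand. Apoc2, an activator of lipoprotein lipase, rose by 0.98 ± 0.08 (adjusted p 0.000346). Of its exonic bases 79.5% overlap another annotated gene on the same strand. Lpl, the lipase itself, fell by 0.77 ± 0.11 (adjusted p 0.00402), with 20.9, 20.6 and 20.4 CPM in the HFHC livers, against 40.6, 30.7 and 34.5 CPM in the Chow livers. The cholesterol exporters did not pass. Abca1 had a log2 fold change of 0.02 ± 0.08 (adjusted p 0.900), Abcg5 of 0.24 ± 0.11 (0.236) and Abcg8 of 0.21 ± 0.13 (0.387). Abcg1 had 0.29 ± 0.13 (adjusted p 0.209), and in Abcg1 every HFHC liver was above every Chow liver. The plot of gene lists sets these next to the regulators and the machinery.

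**Figure D5:**
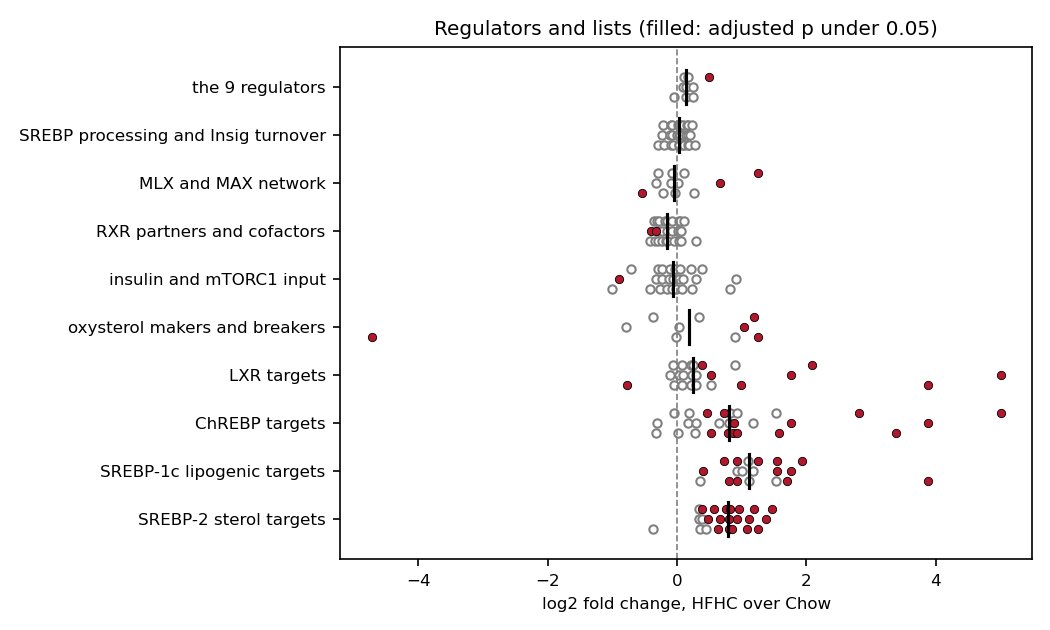
Fitted log2 fold change, HFHC over Chow (x axis), of the 9 regulators and of each tested gene in 9 lists (rows); filled points have an adjusted p under 0.05, open points do not, and the black bar is the median of the row. Medians lie between -0.16 and 0.24 for the regulators, the machinery, the ligand genes and the LXR targets, and between 0.78 and 1.11 for the other target lists.

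The genes whose profile over the 6 livers was most like that of Insig2 were found among 8952 genes with a mean of at least 5 CPM, by the root mean square difference of log2 CPM centred over the livers. Daglb, a lipase that makes the endocannabinoid 2-arachidonoylglycerol, was nearest at 0.0506. Mfge8, a secreted protein that marks dying cells for uptake, followed at 0.0635, and Nxpe2 at 0.0695. Their log2 fold changes were 0.44, 0.43 and 0.54, as the choice by likeness to Insig2 fixes.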

How the data were processed

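RNA was measured in liver from 6 mice, 3 per diet, with a stranded total RNA kit after rRNA depletion, per the labels' protocols. STAR 2.7.3a, Partek 9 and mm10 are the aligner, software and build named in the submitters' processing notes. The authors deposited expected counts per gene, not normalized, of which 22.4% were not whole (tolerance 0.01). Among the 9 regulators, values missed a whole number by at most 0.3. The sources used here give neither the annotation nor the strand setting.

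Counts were rounded and filtered with filterByExpr (minimum count 10). HFHC was compared with Chow in edgeR 4.0.16 (R 4.3.3) with TMM factors, the quasi-likelihood test and Benjamini-Hochberg adjustment over all tested genes, at a threshold of 0.05. The SE is the log2 fold change over the root of the F statistic. The fit was tested on simulated data. CPM used TMM-scaled library sizes, and TPM used exonic lengths of GENCODE M21, from which overlaps and transcript numbers came too. End coordinates are printed less the 1 base by which they passed the annotation's. Alternatives included DESeq2 1.42.0 and limma 3.58.1.

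The 9 genes, the lists and the tests were chosen with earlier results of these data known. From each list the text names the 3 called genes of smallest p on the side with more calls, 1 from the other side, or the single gene of smallest p if no gene was called. With 3 profiles nearest Insig2 this named 25 genes. Another 12, and Abcg1, Txnip, Arrdc4 and G6pc besides, were picked with their values known. A few of these genes are not reported here. Whether the mice came from separate cages is not given. The edgeR p-values set the difference between diets against the variation between these livers, estimated with information shared over genes.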

Additional observations from a re-analysis of the deposited data

How the results depend on the processing

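The fit across genes was repeated under 16 alternatives: other scaling factors, filters, tools and samples, and, added after the data were seen, removal of a GC and length trend. The 4 ratios were recomputed under 7 settings, and the motif search only with 1 mismatch allowed. No paired analysis was possible because the labels give no litter or pairing and the diets share no replicate number. Litter was therefore not in the fit. Leaving out 1 liver at a time gave 207 to 527 genes called higher and 154 to 553 lower, and limma-voom with sample weights called 790 lower. The cause of the changes below was not tested.

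With the clock index in the fit, 36 genes were called higher and 31 lower. Log2 fold changes were then -0.039 for Srebf1, -0.027 for Mlx and 0.0054 for Nr1h2, opposite in sign to the reported values, as were 0.070 for Mbtps2 and -0.10 for Abca1, and none of these was called in either fit. Insig2 stood at 0.59, not called. SREBP-2 targets then gave 2 called higher, SREBP-1c targets 2, ChREBP targets 0, LXR targets 2, and the MLX and MAX network and oxysterol genes 0. In LXR targets, the MLX and MAX network, RXR partners and insulin genes, 0 were called lower.

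With the GC and length trend removed, Mbtps2 was at 0.034, the processing list had 1 called higher, the MLX and MAX network 0 lower, RXR partners 1 lower and insulin genes 1 higher. With upper-quartile factors or no count filter, RXR partners had 1 lower and insulin genes 1 higher, and limma-voom gave insulin genes 1 higher. Sample weights gave 20 ChREBP targets higher, 3 insulin genes higher and 2 lower, 2 oxysterol genes lower and 1 processing gene lower.

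Leaving out 1 liver gave log2 fold changes of 0.46 to 0.55 for Insig2, which at a threshold of 0.01 was not called (0.49, adjusted p 0.0113), and 0.14 to 0.36 for Srebf2. The other regulators, none called without any 1 liver, ranged from 0.028 to 0.22 for Srebf1, 0.14 to 0.37 for Scap, 0.026 to 0.29 for Insig1, 0.019 to 0.26 for Mlxipl, 0.0029 to 0.16 for Mlx, -0.11 to -0.0044 for Nr1h2 and 0.092 to 0.18 for Nr1h3. It gave -0.16 to 0.0085 for Mbtps1, -0.17 to 0.0082 for Mbtps2, -0.038 to 0.070 for Abca1 and -0.026 to 0.13 for Rxra. Calls higher were 7 to 15 for SREBP-1c targets, 7 to 17 for ChREBP targets, 1 to 2 for the MLX and MAX network, 0 to 1 for the processing list and 0 to 4 for insulin genes. Calls lower were 0 to 1 for the MLX and MAX network, 0 to 1 for RXR partners, 1 to 3 for insulin genes and 1 to 2 for oxysterol genes.

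At 3 livers per diet the 95% fold intervals of Scap, 0.985 to 1.44, and Srebf2, 0.998 to 1.412, reached the 1.405-fold of Insig2. A change of that size was therefore not excluded in Scap or Srebf2. The interval of Insig2 itself began at 1.23. Upper ends were above that in Insig1 (1.40), Mlxipl (1.33), Srebf1 (1.30), Mlx (1.24) and Nr1h3 (1.24), and below it in Nr1h2 (1.10). A change within the interval of Insig2 was thus not excluded in Insig1, Mlxipl, Srebf1, Mlx or Nr1h3 either. Over all the alternatives the log2 fold change of Scap ranged from 0.14 to 0.46, and Scap was called in none.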

Other observations

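HFHC replicate 3 was the lowest HFHC liver in 7 of the 9 regulators and the highest in Mlx and Nr1h3. Across all tested genes it was the lowest HFHC liver in 38.6%. Chow replicate 7 was the lowest Chow liver in 5 of the 9, where 30.8% of tested genes had that order. The index of clock phase was 0.470, 1.12 and 1.28 in HFHC replicates 1, 2 and 3, and -1.92, 0.482 and -1.43 in Chow replicates 7, 8 and 9, on the log2 scale centred over the 6 livers.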
